A study of Danio rerio with 18 samples.

Results

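The comparison described here asked what a rise in water temperature did to the transcriptome of zebrafish larvae that had not been given any immune challenge. Larvae of the AB strain were raised from fertilisation to first feeding at 24 °C, and unchallenged control larvae were then either kept at 24 °C (the 24 × 24 °C controls) or brought gradually to 32 °C, where the vehicle was later added and the larvae were sampled 24 h after it (the 24 × 32 °C controls). These are also called the cool and the warm controls below. The members are the 6 count libraries of these groups, 3 in each, out of 18 libraries in 6 groups. All 6 received the vehicle of the lipopolysaccharide (LPS) exposure, phosphate-buffered saline, and shared the incubation temperature, the feeding state and the age in hours. Each library was made from a pool of whole larvae, so it holds RNA of every tissue, and a lower level of a tissue's genes can come from fewer cells of that type or from less RNA per cell, which cannot be told apart. Larvae of the same age also develop faster in warmer water, so temperature itself and developmental progress cannot be told apart either. Of the other groups, larvae that were given LPS at the same temperatures (3 libraries at 24 × 24 °C and 3 at 24 × 32 °C) repeat the warm shift in separate libraries and are used below for comparison. Controls moved from an incubation at 32 °C to 24 °C appear only in a few values set side by side.

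Zebrafish are ectotherms, and the temperature of their cells follows that of the water. When proteins begin to unfold, heat shock factors leave the chaperones that hold them and switch on genes for heat shock proteins, which bind unfolded chains in the cytosol and help them refold. The endoplasmic reticulum has its own chaperones and its own sensors, which together make up the unfolded protein response. Cold water is known to raise RNA-binding and chromatin proteins such as cold-inducible RNA-binding protein, and these fall again in the warmth.

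The count totals separated the groups. The 24 × 24 °C controls held between 5075072 and 8261920 counted reads and the 24 × 32 °C controls between 2405212 and 2897261. Pearson's r between the log2 levels of 2 libraries, over the genes tested, was 0.978 to 0.980 among the 24 × 24 °C controls, 0.955 to 0.963 among the 24 × 32 °C controls and 0.936 to 0.954 across the groups. The first principal component of the 6 libraries held 45.9% of the variance and placed all 24 × 24 °C controls on one side (-25.45, -28.42 and -35.51) and all 24 × 32 °C controls on the other (30.71, 24.28 and 34.38). The second held 22% and spread the 24 × 32 °C controls apart. Defining markers of liver (fabp10a, tfa), exocrine pancreas (prss1, ela2l), intestine (fabp2, fabp6), heart (MYH6) and skin (krt4) were counted in all 6 libraries and were not called different. Of other markers, vil1 (intestine), lyz and cyba (neutrophils) were called lower and myhz1.1 and ckma (skeletal muscle) higher, as described with their lists. The log2 fold changes of the uncalled markers named first ran from -0.94 (fabp2) to 0.98 (prss1). Another red cell marker, hbae3 (-0.66), and another heart marker, myl7 (-0.79, against 0.35 for MYH6), were tested and not called. Nor were the skin markers krt5 (1.04) and cyt1 (0.78, against 0.39 for krt4) and the lens marker crygm2d7 (0.66). The neuron marker elavl3 (-0.18) and the photoreceptor markers rho (-0.25) and gnat2 (0.01) were not called either. The macrophage markers csf1ra and mfap4 and the red cell marker hbae1.1 were too low to test.

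Of 15722 genes with enough counts to test, 976 were differentially expressed (DEGs, taken as an adjusted p under 0.05 in edgeR's quasi-likelihood test and a change of at least 1.5-fold), which is 6.21%. At 32 °C 473 were higher (3.01%) and 503 were lower (3.2%). Changes were mostly moderate, with a median log2 fold change of 0.86 among the higher and -0.93 among the lower DEGs. At least 2-fold changes were found for 175 higher and 221 lower DEGs and at least 4-fold changes for 22 and 32. The 3 libraries of one group lay wholly above or below the 3 of the other for 969 of the 976 DEGs. Over all genes tested the 24 × 32 °C libraries lay wholly above in 16.7% and wholly below in 16.6%. Counts of list members given below are to be read beside these shares and the shares called. The median log2 fold change of all genes tested was 0.0041, so a list of genes with a median near 0 moved as the whole table did. With every library thinned to the smallest total, 627 DEGs were left, of which 534 were among the 976. Without the first 24 × 32 °C control, whose chaperone levels stand apart as described below, 525 were called. With any 1 of the 6 libraries left out, between 400 (without the third 24 × 24 °C control) and 599 were called.

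Many chaperones of the cytosol rose. Of 51 genes tested on the list of cytosolic heat shock proteins and their helpers, 15 were higher at 32 °C and 0 were lower (3.01% of all genes were higher), and the median log2 fold change of the list was 0.45. The list took 0.762, 0.692 and 0.734% of the counts in the 24 × 24 °C controls and 1.06, 0.965 and 0.934% in the 24 × 32 °C controls. These shares do not overlap between the groups. Between 10 and 16 members were higher in the alternatives tried, with 10 when the first 24 × 32 °C control was left out.

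Among DEGs with a mean of at least 1 CPM (counts per 1000000 counted reads, scaled by the trimmed mean of M values), the largest rise was that of hspa1b, an inducible cytosolic Hsp70 that binds unfolded chains. Its level was 2.31, 2.09 and 2.59 CPM in the 24 × 24 °C controls and 403, 38.4 and 47.5 CPM in the 24 × 32 °C controls. The groups do not overlap, but the first 24 × 32 °C library lies far above the other 2. The fitted change was 68.9-fold (log2 6.11 ± 0.92 SE, adjusted p = 0.00205), and without that library it was a log2 fold change of 4.17 (adjusted p = 4.96e-06). The call was lost when edgeR was fitted to the 6 libraries alone (adjusted p = 0.0732). It was also lost with DESeq2 on these 6 and with the replicate number as a block on them. Over these alternatives the adjusted p reached 0.12. The same library was the highest for 3 other inducible Hsp70 genes, which were picked out after their values were seen and did not pass the test. For hsp70l the values were 27.1, 7.75 and 11.1 CPM against 153, 20.3 and 12.5 CPM (adjusted p = 0.152), and the other 2 warm libraries lie within the range of the cool ones. For hsp70.3 they were 23.5, 13.1 and 15.5 CPM against 125, 17.7 and 17.7 CPM (adjusted p = 0.147), and for hsp70.1 8.47, 2.98 and 3.29 against 36.9, 7.29 and 3.84 CPM (adjusted p = 0.111). In each of these 3 the first 24 × 24 °C library was also the highest of its group, which was not so for hspa1b. These genes are close copies of each other, so the share of reads that each received is uncertain.

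Of the Hsp90 genes and the constitutive Hsp70 genes, 4 rose. Hsp90 finishes the folding of kinases, receptors and, in fish muscle, myosin. Its inducible copy hsp90aa1.1, known in zebrafish for folding muscle myosin, was at 28.3, 31.8 and 29.6 CPM at 24 °C and 621, 203 and 310.3 CPM at 32 °C, a 12.6-fold rise (log2 3.66 ± 0.45 SE, adjusted p = 0.000378). The lowest warm library was several times above the highest cool one, and the log2 fold change without the first warm library was 3.09. Its neighbour hsp90aa1.2, a close copy whose reads may be split with it, was at 58.5, 51 and 52.3 CPM in the cool and 394, 286 and 247 CPM in the warm controls (log2 2.52 ± 0.20 SE, adjusted p = 3.79e-07). The constitutive HSP90AB1 was at 2440.2, 2394 and 2382 CPM in the cool and 3040.4, 3449 and 3249 CPM in the warm controls, also without overlap, but it did not pass the test (adjusted p = 0.0942). Of 2 genes named HSPA8 in the annotation, a constitutive Hsp70, ENSDARG00000037403 was at 1.92, 1.34 and 1.53 CPM and then 19.4, 21.9 and 15.3 CPM. This is an 11.8-fold rise (log2 3.56 ± 0.37 SE, adjusted p = 5.26e-06) with all warm libraries close together. The other, ENSDARG00000068992, went from 3165, 2788 and 2946 to 3996, 4399 and 4679.6 CPM, which passed the test (adjusted p = 0.00311) but at 1.47-fold stayed under the 1.5-fold limit. The related hsc70 rose from 226, 175 and 184 to 527, 491 and 489 CPM (log2 1.36 ± 0.22 SE, adjusted p = 0.000878).

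Helpers of both chaperones rose with them. DnaJ proteins hand unfolded chains to Hsp70. The gene dnaja (ENSDARG00000051762) was at 10.8, 8.65 and 17 CPM at 24 °C and 167, 64.9 and 57.6 CPM at 32 °C (log2 2.97 ± 0.42 SE, adjusted p = 0.000736), with the first warm library highest, and dnaja1 was at 11.2, 9.24 and 11.4 CPM in the cool and 26.9, 29.6 and 32.6 CPM in the warm controls (log2 1.48 ± 0.20 SE, adjusted p = 0.000105), with the warm libraries close together. The immunophilin fkbp4, a co-chaperone of Hsp90, rose from 68.1, 65.2 and 64.7 to 252, 174 and 164 CPM (log2 1.58 ± 0.16 SE, adjusted p = 5.26e-06). Unc45b, which folds myosin together with Hsp90 in muscle, rose from 21.7, 23.4 and 17.5 to 72.4, 41.5 and 36 CPM (log2 1.27 ± 0.30 SE, adjusted p = 0.0153). The other called members were dnajb1b (1.76 on the log2 scale), the disaggregation partner hsph1 (1.45), the small heat shock protein HSPB1 (1.41), dnajb1a (1.25), dnajb4 (0.74) and the Hsp90 co-chaperones PTGES3 (ENSDARG00000037284, 0.61) and STIP1 (0.59), all chosen after their values were seen. Among 4 heat shock factor genes tested only HSF2 was called (43.3, 35.6 and 36 against 74.3, 46.1 and 51.8 CPM, log2 0.59, adjusted p = 0.0344), and it was lost in several alternatives, among them the one without the first 24 × 32 °C control. Without the first 24 × 32 °C control unc45b, HSPB1, dnajb1a, dnajb4, PTGES3 and STIP1 were not called either, with adjusted p up to 0.103 for unc45b and 0.373 for HSPB1 over the alternatives.

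The collagen chaperones rose, with little spread between libraries for serpinh1b. Hsp47, which binds procollagen in the endoplasmic reticulum and is heat-inducible, is encoded in zebrafish by serpinh1b and serpinh1a. The level of serpinh1b was 13.1, 12.7 and 14.3 CPM in the 24 × 24 °C controls and 306, 303 and 347 CPM in the 24 × 32 °C controls, a 23.7-fold rise (log2 4.57 ± 0.55 SE, adjusted p = 0.000405). For serpinh1a it was 12.5, 19.2 and 14.8 CPM in the cool and 40.7, 43.8 and 65.2 CPM in the warm controls (log2 1.67 ± 0.21 SE, adjusted p = 4.65e-05), and for the collagen prolyl hydroxylase subunit p4ha2 it was 6.74, 9.24 and 6.94 CPM in the cool and 28, 16.5 and 18.2 CPM in the warm controls (log2 1.45 ± 0.23 SE, adjusted p = 0.000727). These 3 were the higher members of a list of 30 tested genes that fold and modify collagen. Another 4 were lower, namely fkbp9, a prolyl isomerase of the endoplasmic reticulum (-1.20), pcolcea, an enhancer of procollagen cleavage (-0.72), the lysyl hydroxylase PLOD3 (-0.71) and the lysyl oxidase LOXL2 (-0.64). The list's median was -0.405. The 3 higher genes kept their calls in all alternatives, while with any 1 library left out 1 lower gene was called.

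**Figure D1:**
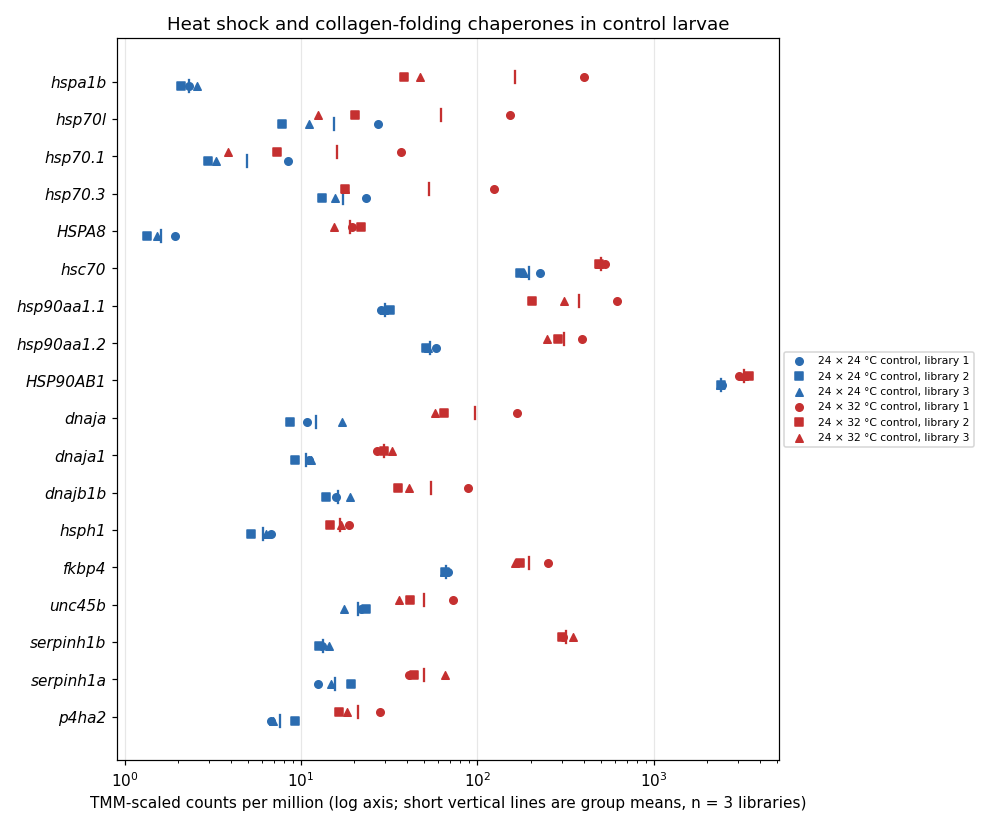
Levels of 18 chaperone genes in the 24 × 24 °C and 24 × 32 °C control libraries, in CPM on a log axis, with 1 point per library and a short line at the group mean. For serpinh1b and HSPA8 (ENSDARG00000037403) the 3 warm points lie together far above the cool ones, while for hspa1b and hsp70l the first warm library stands above the other 2.

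In contrast, most called chaperones of the endoplasmic reticulum fell. Of 49 genes tested for this compartment and its unfolded protein response, 14 were lower and 2 were higher (3.2% and 3.01% of all genes), the median log2 fold change was -0.48, and for 29 genes all warm libraries lay below all cool ones. HSPA5 (BiP), the Hsp70 of this compartment and the holder of its stress sensors, was at 189.9, 150.2 and 323 CPM at 24 °C and 114, 128 and 89.2 CPM at 32 °C (log2 -1.0 ± 0.23 SE, adjusted p = 0.0133). The third cool library was the highest, and the groups do not overlap. The disulphide isomerase pdia4 was at 44.8, 38.6 and 67.6 CPM in the cool and 26.1, 26.5 and 23.5 CPM in the warm controls (log2 -0.99 ± 0.20 SE, adjusted p = 0.00538), again highest in the third cool library. Other lower members were manf, a secreted factor induced by stress of the endoplasmic reticulum (-1.33), the co-chaperones dnajb11 (-1.11) and, chosen after its values were seen like HSPA5, hyou1 (-0.97), the lectin chaperone relative calr3a (-0.65, also chosen so) and the disulphide isomerase p4hb (-0.61). The transcription factor xbp1, which switches on these chaperones, fell from 117, 116 and 139 to 79.9, 77.9 and 73.9 CPM (log2 -0.68 ± 0.14 SE, adjusted p = 0.00629). The sensor ern1, which activates xbp1 by cutting its mRNA, rose from 10.6, 9.54 and 14 to 27.6, 23.4 and 26.4 CPM (log2 1.17 ± 0.32 SE, adjusted p = 0.0291). The other higher member was the translocon subunit SEC61G (0.61). The number of lower members depended on the third 24 × 24 °C control, without which 3 were called. With any 1 of the others left out between 7 (without the first 24 × 32 °C control) and 13 were called. HSPA5 lost its call without the third 24 × 24 °C control or the third 24 × 32 °C control, and its adjusted p reached 0.324 over the alternatives, while ern1 lost its call when any 1 of the 6 libraries was left out (adjusted p up to 0.105).

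The mitochondrial chaperones and proteases numbered 23 tested genes, of which 5 were lower and 1 was higher. The lower ones were phb2a (-1.28) and PHB1 (-0.63), which form the prohibitin ring of the inner membrane, afg3l1 (-1.26) and clpp (-0.97), which are proteases, and TIMM10 (-1.17), a carrier of imported proteins. The higher one was DNAJA3 (0.59), and the list's median was -0.144. Of 13 subunits of the cytosolic chaperonin TRiC, which folds actin and tubulin, only CCT8 was called (0.59). DNAJA3 lost its call in 4 and CCT8 in 3 of the 6 cases in which 1 library was left out. Over all 14 alternatives DNAJA3 lost it in 6 and CCT8, whose change lies at the 1.5-fold limit, in 9.

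Subunits of the proteasome, which degrades ubiquitin-tagged proteins, were among the genes that fell. Of 50 subunits tested, 12 were lower (3.2% of all genes were) and 0 higher, with a median log2 fold change of -0.389. All warm libraries lay below all cool ones for 33 (16.6% of all genes). The core subunit psma6a was at 39.1, 41.5 and 33.3 CPM at 24 °C and 19, 19.6 and 23.5 CPM at 32 °C (log2 -0.88 ± 0.16 SE, adjusted p = 0.00221). The warm libraries lie well below the cool ones. The other lower members ranged from psmb5, the chymotrypsin-like catalytic subunit (-0.83, chosen after its values were seen), to the regulatory subunit PSMD1 (-0.60). Without the first 24 × 32 °C control 4 were called, and without the third 24 × 24 °C control 7.

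Genes for protein synthesis moved in both directions. Of 55 translation factors 6 were higher and 3 lower. Genes for the RNA helicase eIF4A, which unwinds the mRNA start, moved opposite ways. The level of eif4a2 was 53.5, 40.9 and 38.3 CPM at 24 °C and 107, 124 and 158 CPM at 32 °C (log2 1.56 ± 0.15 SE, adjusted p = 3.98e-06), while eif4a1a was at 192, 223 and 239 CPM in the cool and 80.2, 106 and 122 CPM in the warm controls (log2 -1.09 ± 0.17 SE, adjusted p = 0.000604). Neither pair of groups overlaps. The elongation factor eef1a1a rose from 99.1, 101 and 98.7 to 219, 207 and 195 CPM (log2 1.06 ± 0.12 SE, adjusted p = 1.39e-05), and eef1a1b by 0.99 on the log2 scale. The cytosolic ribosomal proteins lay slightly higher. Only rps8b of 82 was called (0.95), but 81 had a positive log2 fold change, 72 had all warm libraries above all cool ones (16.7% of all genes did), and the median was 0.371. A small, even shift like this depends on the scaling, whose factors were 1.01 to 1.04 in the cool and 0.872 to 0.933 in the warm controls. Over the alternatives, with the size factors of DESeq2 among them, the median ranged from 0.286 to 0.427. Of 86 genes that build ribosomes in the nucleolus 7 were lower and 0 higher (median -0.2), among them the RNA-modifying proteins gar1 (-0.89), fbl (-0.84) and dkc1 (-0.71). Without the third 24 × 24 °C control, or without the first or second 24 × 32 °C control, 4 lower genes were called.

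Of 10 genes tested on a list of cold-induced genes and the antifreeze-like afp4, 5 were lower in the warm larvae and 0 were higher, with a median of -0.634. Cirbpa, a cold-inducible RNA-binding protein, was at 868, 989 and 797 CPM in the 24 × 24 °C controls and 311, 372 and 439.8 CPM in the 24 × 32 °C controls (log2 -1.24 ± 0.14 SE, adjusted p = 1.15e-05). All warm libraries lie far below the cool ones. Its paralog cirbpb was at 1481, 1526 and 1369.8 CPM in the cool and 1684, 1679 and 1709 CPM in the warm controls, slightly above in all warm libraries and not past the test (adjusted p = 0.263). The other lower members encode high mobility group proteins, which bend DNA in chromatin, with log2 fold changes of -0.99 (hmgb2a), -0.93 (hmgb1a), -0.67 (hmgb2b) and -0.60 (hmgb1b). Their relative hmgb3a, which was not on the list, had the smallest adjusted p of all genes. It fell 4.46-fold, from 1010.1, 978 and 902 to 208, 202 and 238 CPM (log2 -2.16 ± 0.13 SE, adjusted p = 3.17e-09), and hmgb3b fell by a log2 of 1.25 (94.5, 98.4 and 102 against 42.9, 39.9 and 40.8 CPM). The RNA helicase ddx5, which acts in transcription and splicing, was at 591, 571 and 625 CPM in the cool and 242, 222 and 231 CPM in the warm controls (log2 -1.36 ± 0.16 SE, adjusted p = 2.07e-05). With 1 library left out, between 3 and 5 of the list were called, and the losses were hmgb1b and hmgb2b (adjusted p up to 0.179 and 0.146).

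Genes of sterol synthesis that passed the test were all lower in the warm larvae. Of 28 genes tested, 8 were lower and 0 higher, the median log2 fold change was -0.855, and 16 genes had all warm libraries below all cool ones. The sterol isomerase ebp was at 10.0, 17.6 and 12.7 CPM at 24 °C and 1.87, 2.69 and 3.36 CPM at 32 °C, a 5.16-fold fall (log2 -2.37 ± 0.41 SE, adjusted p = 0.00132). Lanosterol synthase LSS was at 3.85, 7.75 and 6.58 CPM in the cool and 1.87, 1.54 and 0.959 CPM in the warm controls (log2 -2.02 ± 0.52 SE, adjusted p = 0.0201), and both genes are clear of overlap at low levels. The transcription factor srebf2, which controls the pathway, fell from 112, 73.1 and 98.6 to 67.2, 44.1 and 54.7 CPM (log2 -0.77 ± 0.16 SE, adjusted p = 0.00624), and the sterol carrier stard4 from 16.4, 13.9 and 16.9 to 5.97, 6.53 and 5.28 CPM (log2 -1.40 ± 0.25 SE, adjusted p = 0.00172). The enzymes hsd17b7 (-1.84) and MVD (-1.84) were lower as well, as were hmgcs1 (-1.25), an enzyme of an early step, and the lipoprotein receptor ldlrb (-1.40), both chosen after their values were seen. The list was sensitive to depth and to single libraries, with 4 lower members after thinning, between 4 and 6 with 1 library left out, but 14 when the 6 libraries were fitted alone. LSS lost its call without any 1 of 5 of the 6 libraries (adjusted p up to 0.0818).

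The same held for a list of fatty acid oxidation genes and targets of the PPAR nuclear receptors, with 9 of 42 genes tested down and 0 up (median -0.422). Etfdh, which passes electrons from fatty acid oxidation to the respiratory chain, was at 50.4, 58 and 56.4 CPM at 24 °C and 16.4, 24.9 and 22.1 CPM at 32 °C (log2 -1.38 ± 0.15 SE, adjusted p = 8.43e-06). Acaa2, the thiolase of the last step of each round, was at 98.5, 131 and 115 CPM in the cool and 41.8, 43.4 and 47.5 CPM in the warm controls (log2 -1.38 ± 0.17 SE, adjusted p = 5.79e-05). No warm library reached the range of the cool ones for either gene. The trifunctional protein subunits hadhaa (-1.12) and hadhab (-0.80), hadh (-0.83) and the carnitine transferase cpt2 (-0.89) were lower too, and one of the 9, hmgcs1, is the sterol enzyme named above. In other energy pathways, 5.62% of nuclear oxidative phosphorylation genes and 9.52% of glycolysis genes were called, against 6.21% of all genes. Of 89 nuclear subunits of oxidative phosphorylation 2 were higher and 3 lower, with atp5mc1, a subunit of the ATP synthase ring, lowest (-1.06), and of 42 glycolysis genes 2 were higher, including ldhbb (0.94), and 2 lower, including hexokinase hk2 (-1.41). None of the 13 coding genes of the mitochondrial genome was called, and their list median was 0.112.

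**Figure D2:**
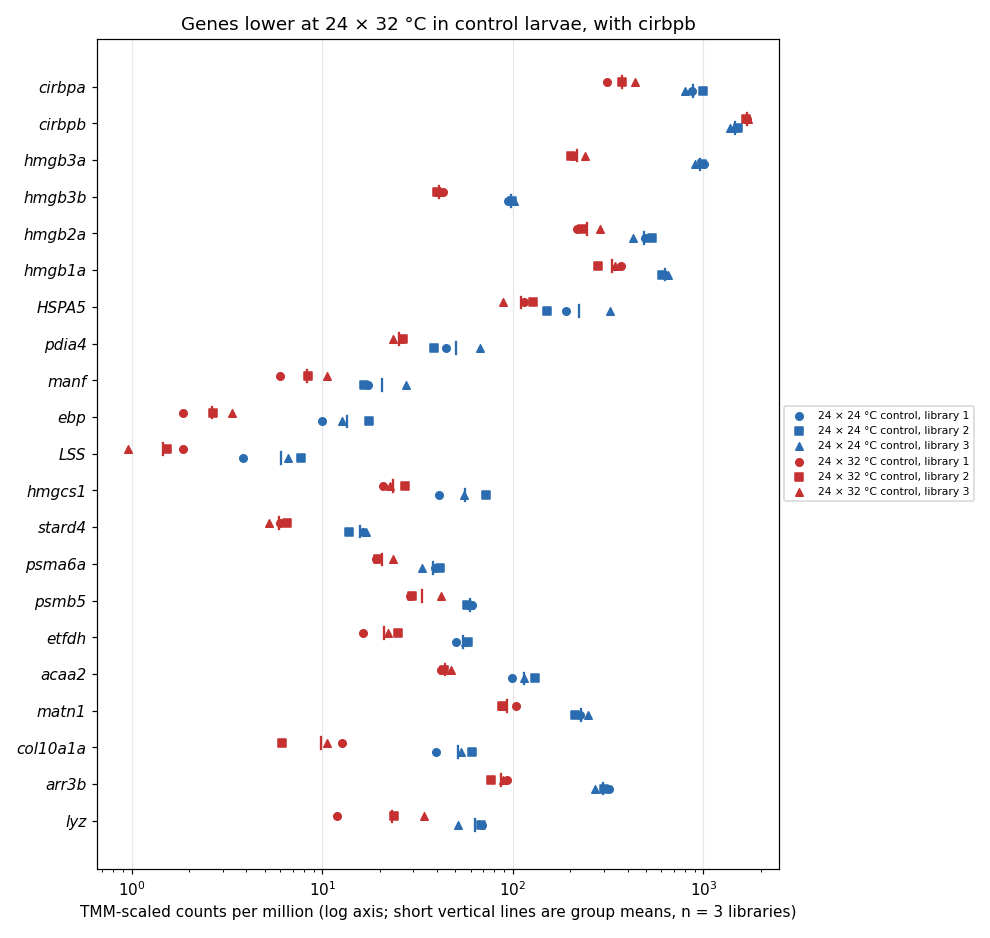
Levels of 21 genes, 20 of them lower at 32 °C and cirbpb for comparison, in CPM on a log axis, with 1 point per control library and a short line at the group mean. For hmgb3a, cirbpa, etfdh and acaa2 every 24 × 32 °C library lies well below every 24 × 24 °C library, and for HSPA5 the third 24 × 24 °C library is the highest.

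Several crystallin genes rose. Crystallins pack the fibres of the lens and keep it clear. Of 46 tested 11 were higher and 0 lower, all 46 had a positive log2 fold change, and the median was 0.652. They took 2.54, 2.31 and 2.41% of all counts in the 24 × 24 °C controls and 3.54, 3.2 and 2.94% in the 24 × 32 °C controls. Cryaa, a small heat shock protein of the lens, was at 43.5, 41.8 and 37 CPM and then 219.8, 168 and 127 CPM (log2 2.08 ± 0.19 SE, adjusted p = 2.84e-06), with every warm library well above the cool ones. Crygm2c, a gamma crystallin of fish, went from near-absence at 0.577, 0.298 and 1.88 CPM to 9.33, 14.2 and 9.11 CPM (log2 3.42 ± 0.57 SE, adjusted p = 0.00107), and crygm2b behaved alike (0.77, 0.149 and 0.823 against 9.33, 5.76 and 6.24 CPM, log2 3.54). The abundant crygm2d10 changed less, from 889, 986 and 966 to 1541, 1692 and 1793 CPM (log2 0.82 ± 0.21 SE, adjusted p = 0.0199). Members of the crygm2 family are near-identical, so the division of reads among them is uncertain. The number called was 23 when the 6 libraries were fitted alone, between 3 (without the third 24 × 24 °C control) and 6 with 1 library left out. Crygm2d10 lost its call with any 1 library left out (adjusted p up to 0.083).

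Several fast muscle genes rose as well. Of 86 contractile genes 15 were higher and 6 lower, with a median of 0.288. The list took 13.0, 13.0 and 12.9% of the counts at 24 °C and 15.1, 16.6 and 17.2% at 32 °C. The skeletal actin acta1a was at 209, 250.3 and 157 CPM at 24 °C and 532, 704 and 791 CPM at 32 °C (log2 1.72 ± 0.18 SE, adjusted p = 6.05e-06), and atp2a1l, a calcium pump of the sarcoplasmic reticulum, was at 953, 1035 and 1067 CPM in the cool and 2399.7, 3184 and 2989.9 CPM in the warm controls (log2 1.49 ± 0.21 SE, adjusted p = 0.000471). No library of either group reached the other group's range. The muscle creatine kinase ckma (0.81) and the fast myosin heavy chain myhz1.1 (0.75, chosen after its values were seen) were also higher. ACTC1, an actin of heart and embryonic muscle, rose from 31.2, 22.2 and 17 to 73.5, 109 and 92.6 CPM (log2 1.98), though the actins share much sequence. The lower members included the myosin heavy chain myhb, which went from 84.9, 92.4 and 125 to 29.5, 28.8 and 25.4 CPM (log2 -1.85 ± 0.44 SE, adjusted p = 0.0212), and the troponin gene tnni2b.1 (-1.59). With 1 library left out between 12 and 18 were higher, but only 2 to 5 lower. Myhb lost its call without the third 24 × 24 °C control or any 1 warm library (adjusted p up to 0.0823).

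Of 31 genes for muscle growth and protein breakdown 7 were higher and 1 lower. Smyd1b, a methyltransferase that works with Hsp90 and Unc45b on myosin in zebrafish, was at 38.1, 39.8 and 41.3 CPM and then 139.6, 95.2 and 141 CPM (log2 1.65 ± 0.16 SE, adjusted p = 3.98e-06). The ubiquitin ligases that mark muscle proteins for degradation were higher too. Trim63a (MuRF1) was at 47.9, 54.1 and 60.0 CPM in the cool and 172, 119 and 109 CPM in the warm controls (log2 1.3 ± 0.30 SE, adjusted p = 0.017), and fbxo32 (atrogin-1) at 16.9, 17.4 and 35.5 CPM in the cool and 198, 84.4 and 62.8 CPM in the warm controls (log2 2.29 ± 0.53 SE, adjusted p = 0.0203). For fbxo32 the first warm library was the highest, and without it the call was lost (log2 1.64, adjusted p = 0.086), as it was without the first or the second 24 × 24 °C control and in the fits of the 6 libraries alone (adjusted p up to 0.289 over all alternatives). Heart genes went mostly the other way, with 5 of 25 lower, among them the cardiac troponins tnnc1a (-2.74) and tnnt2a (-1.44) and the transcription factor hand2 (-1.24). The 2 higher on that list were smyd1b, already counted for muscle, and smyd1a (0.63). The cardiac myosin MYH6 was at 72.2, 80.8 and 78.6 CPM in the cool and 103, 104 and 89.7 CPM in the warm controls and did not pass the test (adjusted p = 0.13). Trim63a lost its call when any 1 cool library or the first warm one was left out (adjusted p up to 0.0806), the muscle growth list then held 3 higher genes without the first 24 × 32 °C control, and the heart list held 1 lower gene without the third 24 × 24 °C control or the second 24 × 32 °C control.

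Several cartilage and matrix genes fell. Of 34 cartilage and bone genes 10 were lower and 1 higher (median -0.328). Matn1, matrilin of cartilage, was at 224, 212 and 248 CPM at 24 °C and 104, 87.5 and 87.3 CPM at 32 °C (log2 -1.29 ± 0.15 SE, adjusted p = 2.07e-05). Col10a1a, a collagen of mature cartilage and of bone-forming cells in fish, was at 39.6, 61 and 53.4 CPM in the cool and 12.7, 6.14 and 10.6 CPM in the warm controls (log2 -2.39 ± 0.45 SE, adjusted p = 0.00624), and col11a2, a fibril collagen of cartilage, at 284, 287 and 282 CPM in the cool and 162, 183 and 172 CPM in the warm controls (log2 -0.72 ± 0.12 SE, adjusted p = 0.00122). The groups do not overlap for any of the 3, and the fall of col11a2 is the smallest. The link protein hapln1b (-1.36) and chondromodulin cnmd (-0.69) were lower too, and phex, a regulator of mineralisation, was higher (0.91). Of 48 collagen chains 9 were lower and 1 higher, and these include the cartilage collagens already counted. Among the rest were col6a1 (-1.09) and col6a2 (-0.90) of the microfibrils around cells. Of 46 metallopeptidases and other matrix genes 11 were lower and 1 higher, including the fibrillin partner mfap2 (-1.36), the basement membrane nidogen nid2a (-1.17) and the gelatinase mmp2 (-0.80). The collagen chaperone serpinh1b thus rose in the same libraries in which 9 collagen chains fell. With 1 library left out the lower genes numbered 6 to 9 for cartilage, 6 to 9 for collagen chains and 4 to 9 for the matrix list, the last being fewest without the third library of either group.

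In the skin, 7 of 59 keratin and epidermal genes were higher and 2 lower (median 0.194). Krt15 was at 261, 272 and 214 CPM at 24 °C and 736, 644 and 708 CPM at 32 °C (log2 1.48 ± 0.23 SE, adjusted p = 0.00103), and annexin anxa1a at 134, 151 and 151 CPM in the cool and 322, 328 and 304 CPM in the warm controls (log2 1.13 ± 0.18 SE, adjusted p = 0.000746). Each warm library was above each cool one for both. The keratin krt91 (1.21) was higher too, whereas krt1-c5 (-0.92) was lower. Of 51 genes of ionocytes and salt transport 3 were higher and 2 lower (9.8% called, against 6.21% of all genes). The urea transporter slc14a2 was at 1.35, 2.53 and 2.35 CPM in the cool and 10.1, 9.6 and 8.15 CPM in the warm controls (log2 2.12 ± 0.44 SE, adjusted p = 0.00583), the parathyroid hormone pth1b at 1.15, 1.34 and 1.29 CPM in the cool and 4.48, 5.76 and 2.88 CPM in the warm controls (log2 1.78 ± 0.43 SE, adjusted p = 0.0156), and the ammonia transporters moved opposite ways, with rhbg higher (0.98) and rhcgb lower (-1.11). With 1 library left out the higher epidermal genes fell to as few as 3 and the lower to 0 (both without the third 24 × 24 °C control). In such cases pth1b lost its call in 5 of 6 (adjusted p up to 0.157). Over the 14 alternatives rhcgb lost its call in 6 (adjusted p up to 0.246) and rhbg in 1. Among the keratins krt91 lost it in 6 (adjusted p up to 0.0881) and krt1-c5 in 5 (up to 0.104).

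In the eye outside the lens, 63 genes of photoreceptors gave 5 higher and 3 lower calls, and the list's median was 0.0125. The cone arrestins, which end the response of the visual pigment to light, both fell. Arr3b was at 320.4, 302 and 268 CPM in the cool and 93.7, 76.8 and 88.2 CPM in the warm controls (log2 -1.78 ± 0.14 SE, adjusted p = 3.14e-07), and arr3a at 597, 635 and 608 CPM in the cool and 319, 297 and 294 CPM in the warm controls (log2 -1.02 ± 0.16 SE, adjusted p = 0.000604). Warm and cool libraries are far apart for both genes. The higher members included LRAT (1.44) and rlbp1a (0.76) of the cycle that renews the pigment's chromophore and the photoreceptor factor nr2e3 (1.1). The arrestins kept their calls in all alternatives, whereas between 0 and 2 of the higher genes were called with 1 library left out.

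Among digestive organs the intestine showed the most calls, with 5 of 42 lower and 0 higher (median -0.584). Villin vil1, of the brush border, was at 110.5, 147 and 123 CPM and then 41.4, 53 and 45.1 CPM (log2 -1.45 ± 0.40 SE, adjusted p = 0.0396), with no overlap. The goblet cell gene agr2 (-1.59), the mucin muc13a (-1.54) and the gut peptides pyyb (-1.54) and vipb (-1.46) were lower too. With 1 library left out between 0 (without the third library of either group) and 3 were called, and vil1 lost its call each time (adjusted p up to 0.125). Of 27 pancreatic enzyme genes 1 was called, the protease prss60.2, which was lower (10.6, 16.3 and 20.5 against 1.49, 2.69 and 1.92 CPM, log2 -2.95). The pancreatic list took 0.340, 0.245 and 0.408% of the counts at 24 °C and 1.0, 0.474 and 0.266% at 32 °C, with the first warm library highest and the third within the cool range. None of 21 hepatocyte markers (median -0.0823) and none of 20 apolipoproteins was called. The apolipoproteins still lay lower as a list. Their median was -0.551, 18 had a negative log2 fold change, and 9 had all warm libraries below all cool ones (16.6% of all genes did).

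Of 13 neutrophil genes 3 were lower and 0 higher, and the count fell to 1 without the third 24 × 24 °C control and without the first or the second 24 × 32 °C control. The list's median was -0.344, with 9 negative and 4 positive members. As many members had all warm libraries above all cool ones (3) as had them below (3). Lysozyme lyz, which breaks bacterial cell walls, was at 68.7, 68.4 and 51.8 CPM at 24 °C and 11.9, 23.8 and 34.1 CPM at 32 °C (log2 -1.46 ± 0.34 SE, adjusted p = 0.016). Cyba, a subunit of the NADPH oxidase, was at 29.1, 25.8 and 37.6 CPM in the cool and 11.6, 12.3 and 16.3 CPM in the warm controls (log2 -1.22 ± 0.27 SE, adjusted p = 0.0095), and the gelatinase mmp9 at 15.2, 38.3 and 45.1 CPM in the cool and 9.33, 3.84 and 6.71 CPM in the warm controls (log2 -2.32 ± 0.60 SE, adjusted p = 0.032). All warm libraries were below the cool ones for each, although the spread in mmp9 is wide and its call was lost in 9 of 14 alternatives. None of 47 inflammatory cytokine and signalling genes and none of 15 macrophage genes was called. Of 46 liver acute-phase and complement genes 1 was higher and 1 lower, the complement-pathway lectin mbl2 (log2 -2.79 ± 0.58 SE, adjusted p = 0.00626), and the list's median was -0.174. Lyz lost its call without the first or the second 24 × 32 °C control (adjusted p up to 0.0965), cyba without the third 24 × 24 °C control (adjusted p = 0.0569).

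Genes of DNA replication and the cell cycle lay lower as a list, though few passed the test. Of 89 tested 6 were lower and 0 higher, 81 had a negative log2 fold change, and the median was -0.483. The helicase subunit mcm2 was at 31.4, 31.3 and 33.2 CPM at 24 °C and 12.7, 16.5 and 18.7 CPM at 32 °C (log2 -1.01 ± 0.24 SE, adjusted p = 0.0124), and the polymerase subunit pold1 changed by -1.19. The warm libraries lie below the cool ones for mcm2. After thinning 1 member was called, without the first 24 × 32 °C control 0 were (mcm2 then had an adjusted p of 0.0688) and without the third 10 were, so the depth and that library move with these calls. Their part in the result was not tested.

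Several clock genes were higher and others lower. Period and Rev-erb proteins feed back on the clock, and in fish the clock is set by both light and temperature. Per3 was at 62, 76.8 and 63.5 CPM in the cool and 192, 135 and 157 CPM in the warm controls (log2 1.26 ± 0.20 SE, adjusted p = 0.000878). Per1a was at 7.51, 6.26 and 7.52 CPM in the cool and 20.9, 14.6 and 14.9 CPM in the warm controls (log2 1.24 ± 0.26 SE, adjusted p = 0.00654), and nr1d1 (Rev-erb alpha) at 34.1, 16.7 and 27.2 CPM in the cool and 85.5, 65.3 and 55.6 CPM in the warm controls (log2 1.42 ± 0.38 SE, adjusted p = 0.0331). The groups do not overlap for these genes. The output factor dbpb (1.21) and the cryptochrome cry3a (1.17) were higher, while cry4 (-0.78), nfil3-5 (-1.09) and aanat2, the enzyme of melatonin synthesis in the pineal (-1.92), were lower. The core clock list had a median log2 fold change of -0.16, with 8 positive and 14 negative members. For clock receptors and outputs the median was 0.132, with 14 positive and 10 negative. Of 22 genes of the core clock 3 were higher and 1 lower, and of 24 clock receptors and outputs 3 were higher and 3 lower. Leaving out 1 library brought these counts down to as few as 1 higher and 0 lower in both lists. Cry3a lost its call whichever library was left out (adjusted p up to 0.151), nfil3-5 in 5 of the 6 cases (up to 0.0793), aanat2 in 4 and cry4 in 3. Each group was sampled at a single time, so a change of level and a change of phase cannot be told apart. Per3 kept its call in all alternatives, per1a lost it only without the first 24 × 32 °C control (adjusted p = 0.0538), and nr1d1 lost it without any 1 of 5 of the 6 libraries (adjusted p up to 0.123).

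**Figure D3:**
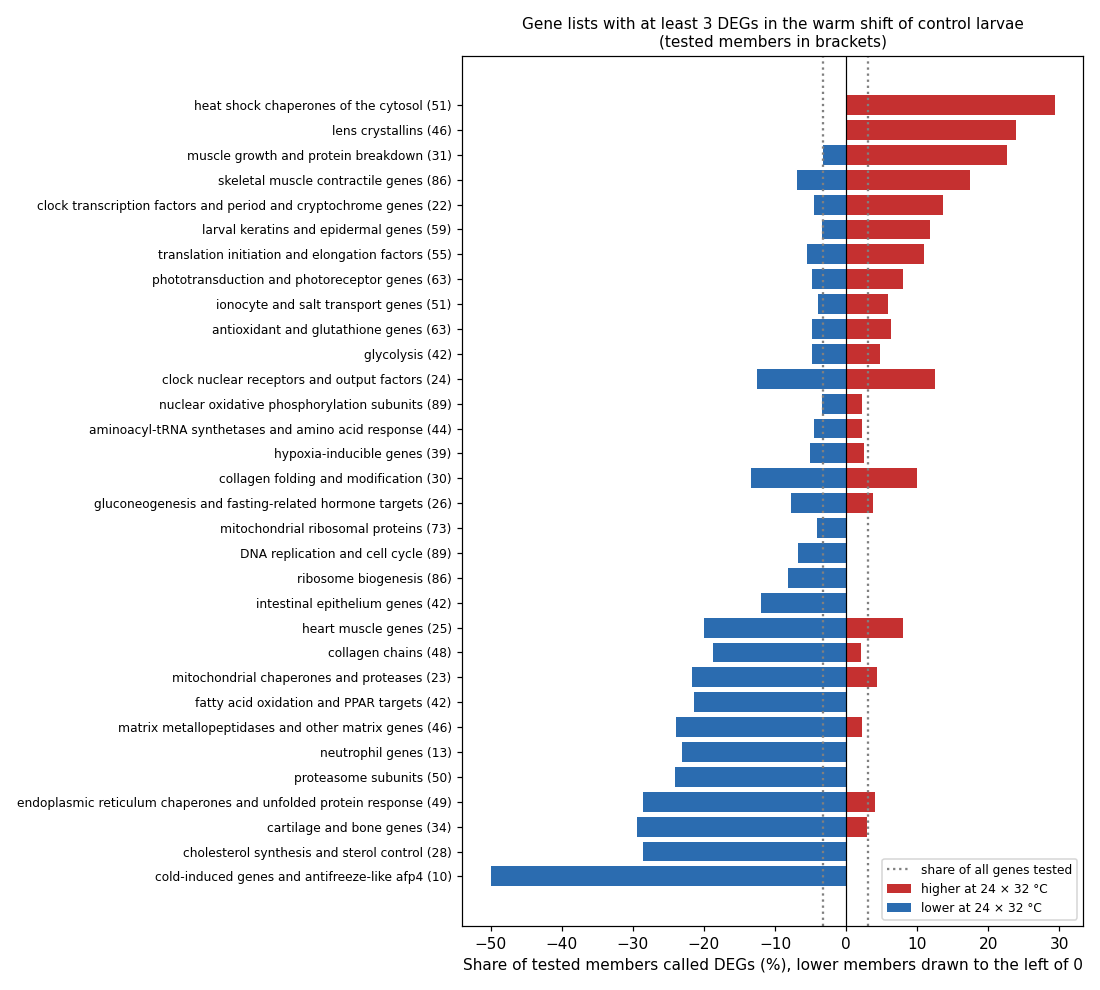
Share of the tested members of each gene list that were DEGs in the warm controls, in percent, with higher members drawn to the right and lower members to the left of 0, for lists with at least 3 DEGs. Dotted lines mark the shares of all genes tested, 3.01% higher and 3.2% lower. Cytosolic chaperones and crystallins reach far to the right, and the cold-induced, sterol, cartilage, endoplasmic reticulum and proteasome lists far to the left.

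In the remaining lists, 11.1% of antioxidant, 7.69% of hypoxia-inducible and 2.08% of neuronal genes were called, against 6.21% of all genes. Of 63 antioxidant genes 4 were higher, including romo1, a mitochondrial protein that raises reactive oxygen (195, 200.4 and 193 against 285, 318 and 325 CPM, log2 0.66), and 3 were lower, including the peroxidases gpx1a (-0.86) and prdx6 (-0.67). Of 39 hypoxia-inducible genes 1 was higher, the mitophagy receptor bnip3 (0.85), and 2 were lower. Of 48 neuronal genes only the activity-dependent factor npas4a was called (1.23), and none of 28 glial genes was. Of 14 genes that the study itself discussed for these larvae, and so chose on these libraries, 7 were higher, 3 lower and 4 not called. The calls are not independent evidence of direction. The study, which used DESeq2, reported the genes it discussed for this comparison as changed. Some of the largest changes were of genes with little annotation. The gene si:ch73-171a6.2 rose from 2.5, 2.39 and 2.12 to 19, 16.5 and 25.9 CPM (log2 3.12 ± 0.31 SE, adjusted p = 4.91e-06). The gene si:dkeyp-87e3.1 fell from 9.43, 9.24 and 17.8 to 1.49, 0.384 and 0 CPM (log2 -4.12 ± 0.58 SE, adjusted p = 0.000211), and both keep their groups apart.

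The warm shift was also measured in separate libraries of LPS-exposed larvae, where differing survival comes with the temperature. Depth partly followed temperature in these larvae as well. The counted reads were 6679159, 5689632 and 2088918 at 24 × 24 °C and 1868228 to 2825333 at 24 × 32 °C. There 486 genes were called (3.09%), 254 of them higher (1.62%) and 232 lower (1.48%). Of the 473 genes higher in the warm controls, 455 (96.2%) had a positive log2 fold change in the LPS larvae, and of the 503 lower, 438 (87.1%) had a negative one. The medians there were 0.56 and -0.46. These genes were chosen for passing the test in the controls, so smaller values in other libraries are built into the choice. In the same direction 118 and 93 were called, which is 21.6% of the DEGs of the controls and 43.4% of those of the LPS larvae. Across all genes tested, which are not independent replicates, Pearson's r between the log2 fold changes was 0.458. In the LPS larvae 10 of 51 cytosolic chaperones and 3 of 10 genes on the cold-induced list were called. The log2 fold change in LPS larvae was 4.14 for serpinh1b, 3.21 for HSPA8 (ENSDARG00000037403), 2.95 for hsp90aa1.1, 2.02 for cryaa, -2.62 for hmgb3a, -2.05 for arr3b and -1.02 for cirbpa, each past the test there too. It was 2.03 for hspa1b, not past the test (adjusted p = 0.361).

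**Figure D4:**
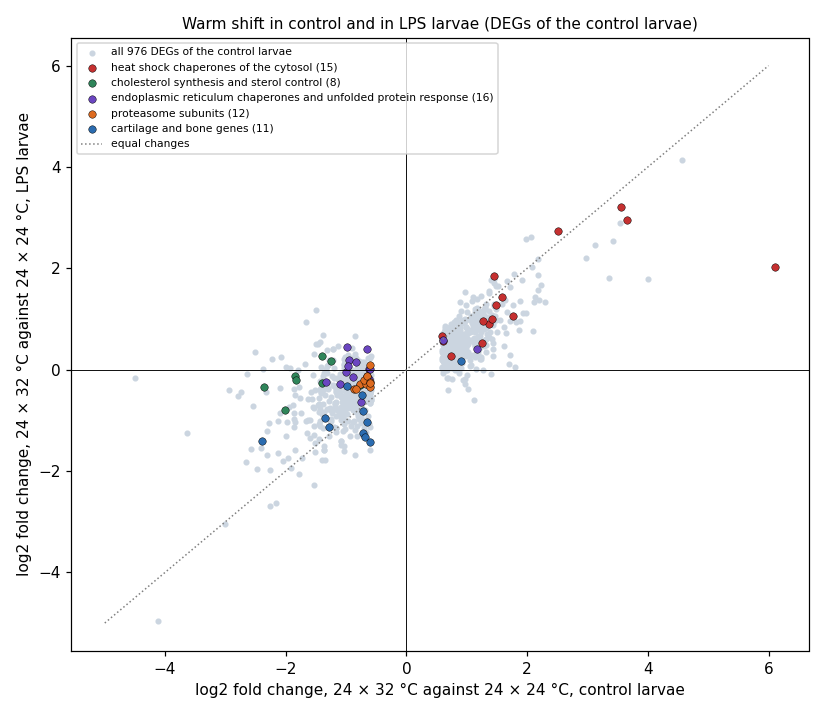
Log2 fold changes of the warm shift in control larvae (horizontal axis) against those in LPS-exposed larvae (vertical axis), with 1 point for each of the 976 DEGs of the controls, members of 5 lists coloured, and a dotted line where both changes are equal. The cytosolic chaperones lie to the upper right, with hspa1b far to the right at 6.11 and 2.03, while the sterol, endoplasmic reticulum and proteasome genes that were lower in controls lie near 0 on the vertical axis.

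Some lists with many lower members in the controls had few or none in the LPS larvae. The median log2 fold change of the endoplasmic reticulum list was -0.48 in controls and 0.149 in LPS larvae, with 14 lower members against 0. For the sterol list it was -0.855 and 0.145 (8 against 0 lower), for the proteasome -0.389 and -0.0622 (12 against 0), for DNA replication -0.483 and 0.0889 (6 against 0) and for fatty acid oxidation -0.422 and -0.069 (9 against 2). For the cytosolic chaperones it was 0.451 and 0.475 (15 against 10 higher), for ribosomal proteins 0.371 and 0.339, for the crystallins 0.652 and 0.106 (11 against 3 higher), for skeletal muscle 0.288 and 0.0796 (15 against 3 higher), and for cartilage -0.328 and -0.576 (10 against 13 lower). Whether the shift differed between controls and LPS larvae was tested gene by gene. Only PDIA3 passed over all genes (0.00636%), while 1186 genes had an unadjusted p under 0.05. In the sterol list the smallest adjusted p of a difference was 0.348, so no member was shown to differ. It was 0.215 for the proteasome, 0.266 for DNA replication and 0.155 for fatty acid oxidation. Unadjusted p was under 0.05 for 22 of 49 endoplasmic reticulum, 16 of 50 proteasome and 20 of 89 DNA replication genes. The same count was 11 of 42 for fatty acid oxidation, 7 of 28 for sterol, 3 of 51 for cytosolic chaperone and 0 of 82 for ribosomal protein genes. Lists of other kinds had similar counts, with 9 of 34 cartilage, 21 of 86 skeletal muscle, 14 of 63 antioxidant and 11 of 59 epidermal genes. For the crystallins it was 6 of 46. Over all genes it was 1186 of 15722. Genes of a list are not independent. The lists named first were picked out for their lower members in the controls, and the difference subtracts that same control shift. Smaller changes in LPS larvae and small p-values of the difference are thus partly built into the choice. For etfdh the log2 fold change was -1.38 in controls and -0.39 in LPS larvae (adjusted p of the difference = 0.155).

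PDIA3, a disulphide isomerase that works on glycoproteins in the endoplasmic reticulum, was at 147, 153 and 160.0 CPM in the cool and 126, 99.4 and 118 CPM in the warm controls, and at 112, 125 and 128 CPM in the cool and 184, 206 and 181 CPM in the warm LPS larvae. It lay lower in all warm controls than in all cool ones, and higher in all warm LPS libraries. The log2 fold change was -0.42 ± 0.12 SE in controls, passing the test (adjusted p = 0.0278) at a change under 1.5-fold, and 0.65 ± 0.12 SE in LPS larvae (adjusted p = 0.0022). The difference was 1.07 ± 0.16 SE on the log2 scale (adjusted p = 0.0281 in edgeR). The call of this difference was lost when 1 of the 12 libraries was left out, except for the first 24 × 32 °C control or the first 24 × 32 °C LPS library.

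**Figure D5:**
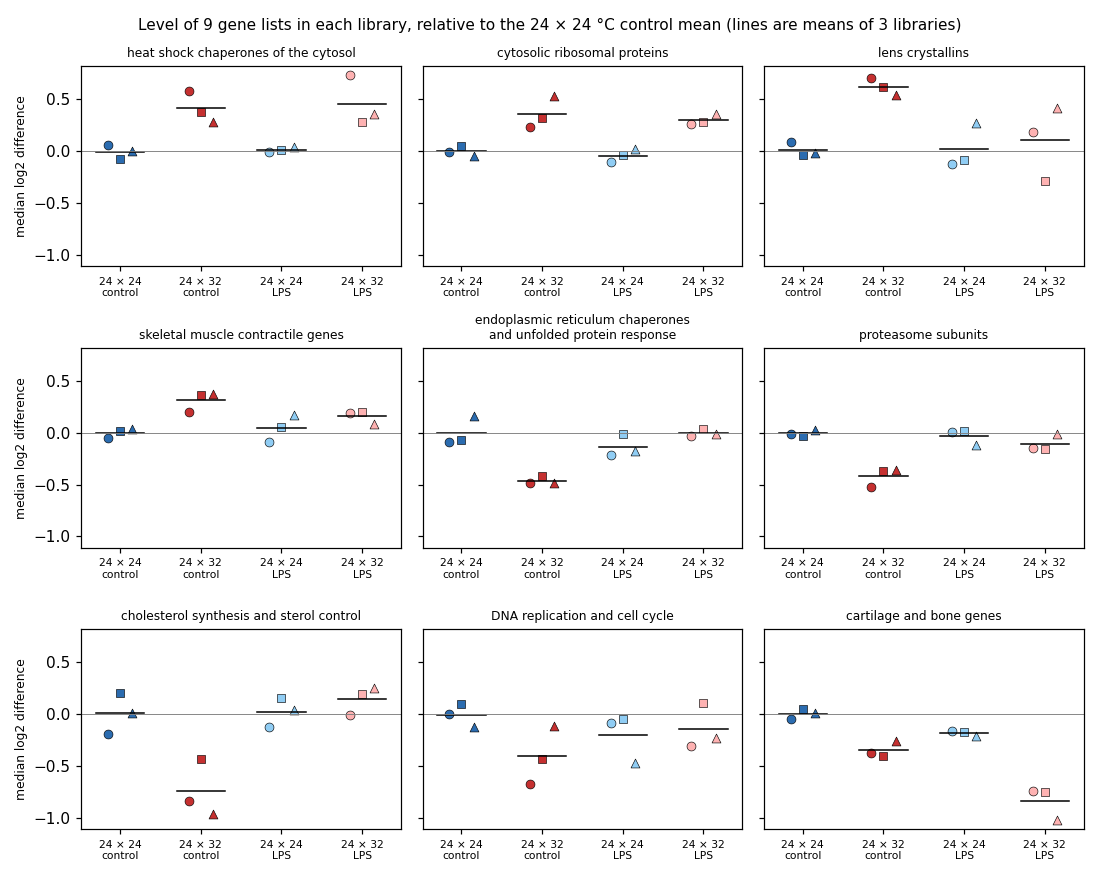
Median log2 level of 9 gene lists in each control and LPS library at 24 × 24 °C and 24 × 32 °C, relative to the mean of the 24 × 24 °C controls, with a line at the mean of 3 libraries. The cytosolic chaperones lie above 0 in all 6 warm libraries, whereas the endoplasmic reticulum list lies between -0.488 and -0.422 in the warm controls and between -0.0357 and 0.0376 in the warm LPS libraries.

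Controls moved from 32 °C down to 24 °C share the 24 × 24 °C libraries with this comparison, so values are only set side by side. These larvae were also younger in hours, because per the study first feeding came sooner at 32 °C than at 24 °C. Incubation temperature and age cannot be told apart in this contrast. That contrast gave 77 DEGs (0.49%). For serpinh1b the log2 fold change was 4.57 after the warm shift and 1.37 after the incubation at 32 °C (adjusted p = 0.297). For per1a it was 1.24 and 1.92 (adjusted p = 0.0025), and for nr1d1 1.42 and 2.25 (adjusted p = 0.0163). For per3 it was 1.26 and 0.36 (adjusted p = 0.486).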

How the data were processed

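Total RNA from pools of whole first-feeding larvae was enriched for poly(A) RNA and sequenced (TruSeq RNA v2, which does not mark strand). Reads were trimmed with cutadapt 1.12 and aligned to GRCz10 with TopHat2 2.1.0. The deposited values are raw counts per gene that the authors made with HTSeq 0.6.1p1, with the strand setting not given in the sources used here, so reads of overlapping genes cannot be told apart by strand.

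Counts were fitted with edgeR 4.0.16 (R 4.3.3) as quasi-likelihood models of 6 group means over all 18 libraries, after a filter on low counts (filterByExpr, minimum 10, total 15) and scaling by the trimmed mean of M values. P-values were adjusted by Benjamini and Hochberg over the 15722 genes tested. The script was tested on simulated data for this comparison (15439 genes), where 94% of 4-fold, 46% of 2-fold and 14.3% of 1.5-fold rises were called, with 9 false calls. SE is of the log2 fold change and was derived from the test, as the size of the change divided by the square root of the F statistic. It thus rests on the fit of all 18 libraries. CPM values are of single libraries, and log2 levels used a prior count of 2. Per the study's methods the experiment was repeated with newly drawn parent fish, but the sources used here do not tie the libraries to the repeats, so p-values measure the spread between these pools.

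Names came from a reference table of gene IDs for 26154 of 31624 genes and from the study's supplementary names for 61 more. The members and the 54 gene lists were chosen with earlier results of these data known. Genes were named by a rule: the 12 called genes with the largest change (mean of at least 1 CPM) and the 12 with the smallest adjusted p in each direction, from each list up to 6 called members a direction and up to 2 abundant uncalled ones, the genes the study discusses, and genes called in the difference. Exceptions are marked. Alternatives were DESeq2 1.42.0, its size factors, no filter, thinned counts, a fit of the 6 libraries alone, a replicate block, other fold thresholds and each library left out. Promoter and protein sequences were not used here.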

Additional observations from a re-analysis of the deposited data

Results flagged for a closer look

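The warm shift of PDIA3 differed between control and LPS-exposed larvae. The log2 fold change in LPS larvae minus that in controls was 1.07 (SE 0.16, adjusted p = 0.0281 in edgeR's quasi-likelihood test over all genes), with lower levels in 3 of 3 warm controls and higher levels in 3 of 3 warm LPS libraries. It was the only gene to pass that test.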

How the results depend on the processing

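The count of 976 DEGs rose to 1616 when edgeR was fitted to the 6 libraries alone, and fell to 627 with counts thinned to the smallest library and to 396 with a threshold of 2-fold. DESeq2 gave 1004 on all libraries and 1253 on the 6. With 1 of the 18 libraries left out it ranged from 400 to 1199. The 486 DEGs of the LPS larvae became 770 in a fit of the 12 libraries concerned and ranged from 215 to 586 with 1 left out. The single gene of the difference became 21 in that fit, 24 with DESeq2, 2 without the low-count filter, 2 with the replicate block and 0 to 2 with 1 library left out. Fewer samples enter each fit with a library left out. With the replicate number as a block, 1080 were called on all libraries and 1477 on the 6. The same-numbered cool and warm controls did not deviate together (r of -0.111, -0.0198 and -0.208), and no warm control correlated best with its own number. Same-numbered control and LPS libraries gave r of -0.0317, 0.182 and 0.16 at 24 × 32 °C and 0.117, -0.1 and 0.0175 at 24 × 24 °C. Deviations from a mean of 3 libraries depend on each other, so these values cannot settle whether the numbers pair the libraries. Of 146 called genes named in the text, 70 kept their call in all 14 alternatives tried for single genes, 76 lost it in at least 1 and 0 changed sign. The count of lower genes on the list of fatty acid oxidation and PPAR targets ranged from 7 to 11 with 1 library left out. The block on the 6 libraries lost, among others, the calls of hsp90aa1.1 (adjusted p = 0.0654), dnaja (adjusted p = 0.137), hspa1b, HSPA5, fbxo32, lyz and mmp9. The warm libraries' lower depth limits calls among low genes, and its part in the differences was not tested.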
